A study of Mus musculus with 9 samples.

Results

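The globin and erythroid genes of the perinatal mouse heart were followed in 9 hearts. They were chosen by symbol: the adult alpha globins *Hba-a1* and *Hba-a2*, the embryonic alpha-like globin *Hba-x*, the adult beta globins *Hbb-bs* and *Hbb-bt*, the embryonic beta-like globins *Hbb-y* and *Hbb-bh1*, the heme enzyme gene *Alas2* and the red cell anion exchanger gene *Slc4a1*. All 9 were among the 48820 genes of the table. The hearts came from untreated wild-type C57BL/6J mice, 3 each at embryonic day 18.5 (E18.5d), postnatal day 1 (P1d) and postnatal day 7 (P7d), and all were labeled male. RNA of the whole heart was sequenced, and expression is given as FPKM, fragments scaled by the length of the transcript and the depth of the library. The stages were compared to ask how expression changed around birth.

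Red blood cells carry oxygen on hemoglobin, a tetramer of alpha-like and beta-like globin chains that each hold a heme group. Mice make embryonic globins in the primitive red cells of the yolk sac and adult globins in the definitive red cells of the fetal liver and later the bone marrow and spleen. The heart makes no red cells, but blood stays in its chambers and vessels, and reticulocytes, the youngest circulating red cells, still hold globin mRNA. In bulk tissue, fewer cells of a type cannot be told apart from less RNA per cell.

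Some features of the hearts preceded all comparisons. The depth recovered from the steps of the FPKM values ran from 25500000 to 45500000 fragments per heart. *Xist*, the RNA of the inactive X chromosome, was at 82.6, 0.08 and 97.0 FPKM in the E18.5d hearts, at 0.07 to 0.11 FPKM at P1d and at 0.02, 58.0 and 70.0 FPKM at P7d, so 4 hearts labeled male had *Xist* at 58.0 FPKM or more. The 7 cardiomyocyte markers summed to between 30831 and 35854 FPKM in all 9 hearts. Hepatocyte markers (6 genes, none at 0 in every heart) summed to 6.85, 1.69 and 9.77 FPKM at E18.5d, to 1.41, 34.6 and 2.93 FPKM at P1d and to 0.73 to 1.15 FPKM at P7d. Their sum was highest in E18.5d replicate 3 and P1d replicate 2, which also had the highest adult globin levels of their stages. At P1d all 6 genes were highest in replicate 2. At E18.5d *Alb*, *Afp* and *Fgb* were highest in replicate 3, but *Apoa1*, *Serpina1a* and *Ttr* were highest in replicate 1. Neutrophil markers (7 genes) summed to 6.19 to 11.7 FPKM at E18.5d, 47.9 to 69.8 FPKM at P1d and 15.1 to 19.4 FPKM at P7d. The part of these other cells in the results was not tested.

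The globins are near copies of one another, which limits how reads can be assigned. The first 90 coding bases are shown for the beta-like genes, with capitals at bases that differ from *Hbb-bs*. The sequences are from GENCODE M21 transcripts of GRCm38.
Hbb-bs: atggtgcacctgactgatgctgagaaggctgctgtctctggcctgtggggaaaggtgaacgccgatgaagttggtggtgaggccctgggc
Hbb-y: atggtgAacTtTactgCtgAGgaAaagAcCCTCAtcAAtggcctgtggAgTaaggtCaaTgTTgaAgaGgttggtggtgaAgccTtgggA
Hbb-bh1: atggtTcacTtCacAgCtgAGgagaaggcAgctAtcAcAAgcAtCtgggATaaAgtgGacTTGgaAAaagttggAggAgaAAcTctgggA
*Hbb-bt* had the same 90 bases as *Hbb-bs* and differed from it at 1 of 444 coding bases (99.8% identical). *Hbb-y* differed from *Hbb-bs* at 114 of these bases (74.3% identical) and *Hbb-bh1* at 115 (74.1% identical). The alpha-like genes are shown in the same way, with capitals at bases that differ from *Hba-a1*.
Hba-a1: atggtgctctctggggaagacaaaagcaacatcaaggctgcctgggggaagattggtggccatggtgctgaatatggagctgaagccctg
Hba-x: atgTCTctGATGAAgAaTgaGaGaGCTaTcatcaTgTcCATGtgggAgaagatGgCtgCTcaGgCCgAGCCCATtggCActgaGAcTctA
*Hba-a2* had the same 90 bases as *Hba-a1* and differed from it at 1 of 429 coding bases. *Hba-x* differed at 163 of these bases (62.0% identical). Of all 50-base windows of the *Hba-a2* transcript 86.9% also occurred in *Hba-a1*, and 67.5% of those of *Hba-a1* occurred in *Hba-a2*. Between the adult beta genes, 65.8% of the *Hbb-bs* windows and 58.3% of the *Hbb-bt* windows were shared. How the counting split such reads is not given in the sources used here, so the division between *Hba-a1* and *Hba-a2* and between *Hbb-bs* and *Hbb-bt* is uncertain, and the levels of all 4 are too low if shared reads were left out. No 50-base window of *Hba-x*, *Hbb-y*, *Hbb-bh1*, *Alas2* or *Slc4a1* occurred on the same strand of another gene's transcript.

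The genes also share promoter elements. The 120 bases before the RefSeq transcript start (GRCm38.p6) are shown for an adult and an embryonic gene of each family and for *Alas2*, with capitals at matches on either strand to any of 4 motifs. These are CACCC, bound by KLF factors, CCAAT, bound by NF-Y, GATAA, bound by GATA factors, and TATAA, the core of the TATA box. The windows are chr11:32296372-32296491 on the plus strand for *Hba-a2*, chr11:32276480-32276599 on the plus strand for *Hba-x*, chr7:103827929-103828048 on the minus strand for *Hbb-bs*, chr7:103853208-103853327 on the minus strand for *Hbb-y* and chrX:150547297-150547416 on the plus strand for *Alas2*. GENCODE M21 places the start of all 5 genes within or before the window.
Hba-a2: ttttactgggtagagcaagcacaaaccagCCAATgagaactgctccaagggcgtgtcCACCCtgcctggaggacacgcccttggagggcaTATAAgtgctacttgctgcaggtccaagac
Hba-x: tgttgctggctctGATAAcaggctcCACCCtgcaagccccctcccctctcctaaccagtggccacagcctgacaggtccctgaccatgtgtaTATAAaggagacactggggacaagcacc
Hbb-bs: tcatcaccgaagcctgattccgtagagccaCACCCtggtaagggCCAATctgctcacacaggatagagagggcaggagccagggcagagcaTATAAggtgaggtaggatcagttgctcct
Hbb-y: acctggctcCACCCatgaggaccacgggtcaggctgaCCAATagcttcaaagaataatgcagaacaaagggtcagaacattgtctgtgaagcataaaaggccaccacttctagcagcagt
Alas2: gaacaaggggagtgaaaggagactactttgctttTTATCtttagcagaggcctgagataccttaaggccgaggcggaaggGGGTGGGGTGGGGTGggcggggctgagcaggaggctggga
CACCC was found in all 7 genes with a promoter sequence here, against 31.7% of 32817 promoters. CCAAT was found in 5 of the 7, the adult globins and *Hbb-y*, against 21.3% of promoters. TATAA was found in 5 of the 7, all but *Hbb-y* and *Alas2*, against 11.9%. GATAA was found in *Hba-x* and *Alas2*, against 10.5%. In *Hba-a2*, *Hbb-bs* and *Hba-x* the TATAA match began 30, 29 and 28 bases before the start. These matches describe letters in the windows only.

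The adult globins were abundant in every heart, and the embryonic ones were near the limit of detection. Within each of the 9 hearts the order of FPKM levels was *Hbb-bs*, *Hba-a2*, *Hba-a1*, *Hbb-bt*, *Alas2*, *Slc4a1* and then *Hbb-y*. The 4 adult globins summed to 8398 to 22697 FPKM at E18.5d, 12693 to 24662 FPKM at P1d and 8520 to 10373 FPKM at P7d. This was 1.64% to 4.51%, 2.55% to 4.65% and 1.86% to 2.28% of the FPKM of all protein-coding nuclear genes. *Hba-x* and *Hbb-bh1*, the lowest of the 9, had stage means of at most 0.547 FPKM, and their order was not the same in every heart.

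*Hbb-bs*, the more abundant adult beta globin, was at 5013, 3929 and 10262 FPKM at E18.5d, at 6996, 10873 and 5672 FPKM at P1d and at 4946, 3804 and 4285 FPKM at P7d. *Hbb-bt*, the other adult beta globin, was at 820, 579 and 1753 FPKM at E18.5d, at 1091, 1714 and 1044 FPKM at P1d and at 622, 509 and 575 FPKM at P7d. For both genes every P7d heart lay below every P1d heart, whereas the E18.5d hearts overlapped those of both later stages.

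*Hba-a1*, an adult alpha globin, was at 1696, 1278 and 3400 FPKM at E18.5d, at 2803, 4461 and 2161 FPKM at P1d and at 1799, 1373 and 1743 FPKM at P7d. *Hba-a2*, its near-identical neighbor, was at 3543, 2613 and 7282 FPKM at E18.5d, at 4766, 7613 and 3816 FPKM at P1d and at 3006, 2834 and 3584 FPKM at P7d. Again the P7d hearts all lay below the P1d hearts, and E18.5d overlapped both.

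*Alas2*, the erythroid form of the rate-limiting enzyme of heme synthesis, was at 25.9, 19.1 and 45.3 FPKM at E18.5d, at 40.7, 61.9 and 36.6 FPKM at P1d and at 34.8, 28.6 and 33.1 FPKM at P7d. *Slc4a1*, which encodes band 3, the chloride-bicarbonate exchanger of the red cell membrane, was at 1.85, 1.55 and 3.19 FPKM at E18.5d, at 5.01, 6.21 and 4.89 FPKM at P1d and at 2.52, 2.75 and 3.33 FPKM at P7d. Only for *Slc4a1* among these 6 genes did all P1d hearts lie above all E18.5d hearts, which 22.1% of all 13618 genes tested below did, and for none did they lie below, which 32.3% of genes did.

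**Figure D1:**
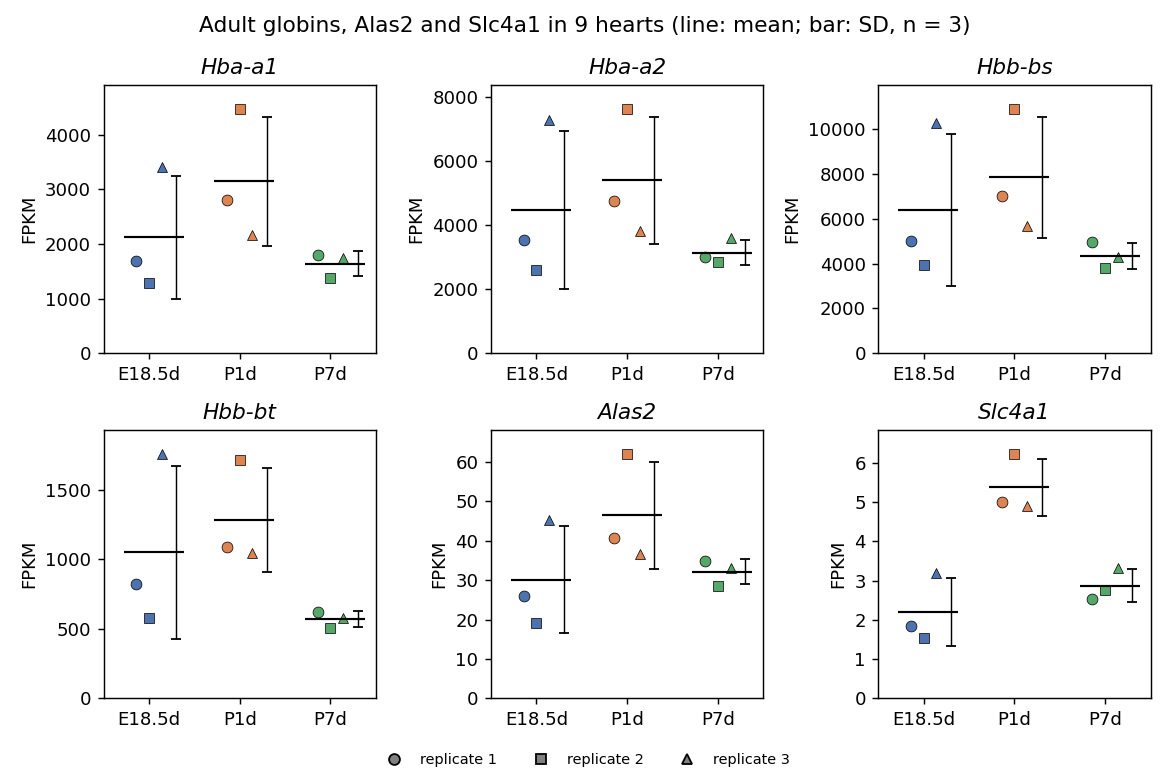
FPKM of the 4 adult globins, *Alas2* and *Slc4a1* in each heart by stage (points: hearts, shape gives the replicate number; line: mean; bar: SD, n = 3; all axes start at 0). E18.5d replicate 3 and P1d replicate 2 stand above the other hearts of their stages, and the P7d hearts lie below all P1d hearts for the 6 genes.

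Between E18.5d and P1d, *Slc4a1* rose and the globins and *Alas2* had higher means without passing the test. Limma was fitted on log2(FPKM + 1) of 13618 genes, those averaging 1 FPKM or more, with Benjamini-Hochberg adjustment over all of them. *Slc4a1* was higher at P1d by 1.02 on the log2 scale (SE 0.18, limma adjusted p = 0.00146). It was the only one of the 6 members that passed the filter to be called higher, and none was called lower, against 18.4% of all genes called higher and 27.6% called lower. *Alas2* had a log2 change of 0.66 (SE 0.28, limma adjusted p = 0.0819) and *Hba-a1* one of 0.62 (SE 0.35, limma adjusted p = 0.173). *Hba-a2*, *Hbb-bs* and *Hbb-bt* had log2 changes of 0.35, 0.36 and 0.41, with limma adjusted p-values of 0.451, 0.403 and 0.362. The median of the 6 was 0.52, and that of all genes was -0.06. The counts turned on 1 heart: without E18.5d replicate 3, 5 of the 6 were called higher, with log2 changes of 1.03 for *Hba-a1*, 0.77 for *Hbb-bs*, 0.86 for *Hbb-bt* and 0.99 for *Alas2* beside *Slc4a1*. Without both that heart and P1d replicate 2, a pair chosen after seeing the data, 4 were called higher. Each of these hearts was the highest of its stage for all 6 members, so leaving them out lowers the spread of the tested values. The share of all genes called in the fits with hearts left out is not given here. Their counts are therefore not set against a background.

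Between P1d and P7d, *Hbb-bt* and *Slc4a1* fell, and the P7d hearts of all 6 members lay below the P1d hearts. *Hbb-bt* fell by 1.14 on the log2 scale (SE 0.35, limma adjusted p = 0.0249) and *Slc4a1* by 0.72 (SE 0.18, limma adjusted p = 0.00981), so 2 of 6 were called lower, against 28.6% of all genes. *Hba-a1*, *Hbb-bs* and *Hba-a2* had log2 changes of -0.88, -0.81 and -0.73, with limma adjusted p-values of 0.0672, 0.0802 and 0.124. *Alas2* had a log2 change of -0.48 (SE 0.28, limma adjusted p = 0.191). The median of the 6 was -0.77, and that of all genes was -0.09. Non-overlapping hearts with P7d lower were seen for 6 of 6 members and for 34.3% of all genes; after scaling the columns by the median of ratios they were seen for 4 of 6 members, all but *Hba-a2* and *Alas2*, and for 25.0% of genes. The call of *Hbb-bt* was lost without P1d replicate 2 (adjusted p = 0.0826 in limma), without P7d replicate 2 (0.0775) or without P7d replicate 3 (0.0591), and in the fit of genes at any level used below for the embryonic globins (0.0684). Conversely, 5 of 6 members were called lower without E18.5d replicate 3, which enters this comparison only through the pooled spread. The share of all genes called lower in that fit is not given here.

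Between E18.5d and P7d no member was called, against 12.5% of all genes called higher and 36.9% called lower by limma. The hearts of these stages overlapped for all 6 members, and were higher without overlap for 16.9% of all genes and lower for 45.6%. The log2 changes were -0.26 for *Hba-a1*, -0.38 for *Hba-a2*, -0.44 for *Hbb-bs*, -0.73 for *Hbb-bt*, 0.18 for *Alas2* and 0.30 for *Slc4a1*, with limma adjusted p-values between 0.109 and 0.633. Their median was -0.32, and that of all genes was -0.17, a shift of the whole table that the median of ratios removes. With that scaling the share of called genes that were higher went from 40.0% to 50.4% for P1d against E18.5d, from 25.3% to 50.6% for P7d against E18.5d and from 35.1% to 52.5% for P7d against P1d.

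These genes spread widely among the hearts of E18.5d, and less so at the later stages. At E18.5d the highest heart exceeded the lowest by 2.06 to 3.03 times over the 6 genes, whereas the median gene differed by 1.15 times. For each of the 6, replicate 3 was highest and replicate 2 lowest. At P1d the ratios were 1.27 to 2.06 beside a median of 1.22, with replicate 2 highest and replicate 3 lowest for each of the 6. At P7d they were 1.22 to 1.32 beside a median of 1.15, and the members did not share their highest heart. The share of genes with a smaller ratio was 96.6% to 98.8% at E18.5d, 58.7% to 95.1% at P1d and 66.7% to 79.9% at P7d.

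Of the embryonic globins, *Hbb-y* and *Hba-x* were lowest at P7d, and *Hbb-bh1* was too low to compare. *Hbb-y*, the epsilon-like globin of primitive red cells, was at 0.83, 0.89 and 1.61 FPKM at E18.5d, at 1.47, 1.28 and 0.99 FPKM at P1d and at 0.53, 0.45 and 0.07 FPKM at P7d. These values came from 35, 33 and 13 recovered fragments per stage. The P7d hearts all lay below the hearts of the other stages, which overlapped each other. Among the 13618 tested genes, which do not include *Hbb-y*, 45.6% were lower at P7d without overlap against E18.5d and 34.3% against P1d.

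*Hba-x*, the zeta-like alpha globin of primitive red cells, was at 0.39, 0.49 and 0.76 FPKM at E18.5d, at 0.07, 0.08 and 0.29 FPKM at P1d and at 0 in all P7d hearts. The recovered fragments were 5, 9 and 12 at E18.5d, 1, 1 and 4 at P1d and 0 at P7d. No hearts overlapped between any pair of stages, with E18.5d highest and P7d lowest, though the P1d levels rest on 6 fragments. Of the 13618 tested genes, which do not include *Hba-x*, 32.3% were lower without overlap at P1d against E18.5d. The shares were 45.6% at P7d against E18.5d and 34.3% at P7d against P1d. A count of 0 over the 3 P7d hearts allows a level of up to 0.0499 FPKM (3 fragments over the group). The E18.5d mean of 0.547 FPKM was 10.9 times that limit, a ratio that leaves out the error of the mean and the spread between hearts. *Hbb-bh1*, another embryonic beta-like globin, gave 8 fragments in all 9 hearts together and at most 0.35 FPKM in 1 heart, and no order of its stages can be read at this depth.

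None of the 3 embryonic genes reached a mean of 1 FPKM, so they were not in the test above. In a limma fit of all 27255 genes above 0 in any heart, with the same pseudocount, *Hba-x* was lower than at E18.5d both at P1d (log2 change -0.43, limma adjusted p = 0.0155) and at P7d (-0.62, limma adjusted p = 0.00268), while P7d against P1d was not called (-0.19, limma adjusted p = 0.226). *Hbb-y* was lower at P7d than at either earlier stage (-0.64 against E18.5d, limma adjusted p = 0.0364; -0.75 against P1d, limma adjusted p = 0.0234). On log2(FPKM + 1) such low genes change less than their FPKM do. *Hbb-bh1* was called in no comparison in that fit (limma adjusted p from 0.412 to 0.835). The share of all genes called in that fit is not given here, so these calls are not set against a background.

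**Figure D2:**
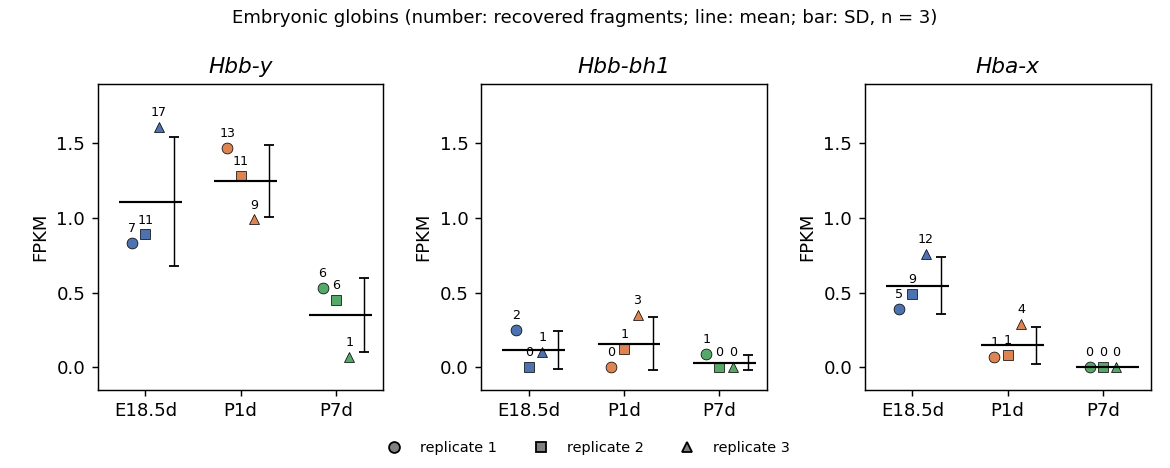
FPKM of the 3 embryonic globins in each heart by stage, with the number of recovered fragments above each point (line: mean; bar: SD, n = 3; 1 common axis). *Hba-x* goes from 5 to 12 fragments per heart at E18.5d to 0 at P7d, and *Hbb-bh1* gives at most 3 fragments in a heart.

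Ratios within a heart do not depend on the scale of its column. They were compared by exact two-sided permutation tests, which with 3 hearts against 3 cannot go below p = 0.1, and 18 such tests were made (adjusted p = 0.164 by Benjamini-Hochberg for each of those at the minimum). *Hba-x* made up 0.00744%, 0.0126% and 0.00711% of alpha-like globin FPKM in the E18.5d hearts, 9.25e-04%, 6.63e-04% and 0.00485% in the P1d hearts and 0 in the P7d hearts. All 3 comparisons were without overlap (exact permutation p = 0.1 each). The embryonic share of beta-like FPKM, *Hbb-y* and *Hbb-bh1* together, averaged 0.0175% ± 0.00289 (SD, n = 3) over the E18.5d hearts, 0.0164% ± 0.00467 over the P1d hearts and 0.00767% ± 0.00540 over the P7d hearts. It was lower at P7d than at E18.5d without overlap (exact permutation p = 0.1), while P1d overlapped E18.5d (exact permutation p = 0.7) and P7d (exact permutation p = 0.2).

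Among the adult chains, *Hbb-bt* made up 14.1%, 12.8% and 14.6% of adult beta globin FPKM at E18.5d, 13.5%, 13.6% and 15.5% at P1d and 11.2%, 11.8% and 11.8% at P7d. The P7d hearts lay below those of both earlier stages (exact permutation p = 0.1 each), by 2.23 percentage points against E18.5d and 2.62 against P1d. This share also rests on how reads shared by *Hbb-bs* and *Hbb-bt* were split, which is not known here. The ratio of alpha-like to beta-like FPKM averaged 0.883 ± 0.0183 (SD, n = 3) over the E18.5d hearts, 0.928 ± 0.0352 over the P1d hearts and 0.978 ± 0.117 over the P7d hearts, and the hearts overlapped in every comparison (exact permutation p = 0.2, 0.4 and 0.6). *Hba-a1* was 31.8% to 32.8% of adult alpha globin FPKM at E18.5d, 36.2% to 37.0% at P1d and 32.6% to 37.4% at P7d, a split that rests on shared reads and was not tested.

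Relative to the globins, the heme enzyme was higher at each later stage. *Alas2* per 1000 adult globin FPKM was 2.34, 2.28 and 1.99 in the E18.5d hearts, 2.60, 2.51 and 2.89 in the P1d hearts and 3.36, 3.35 and 3.25 in the P7d hearts. No hearts overlapped between stages in any of the 3 comparisons (exact permutation p = 0.1 each). The within-stage SD was 0.0610 to 0.196, and hearts high in globins within a stage were high in *Alas2* too. *Slc4a1* per 1000 adult globin FPKM was 0.167, 0.185 and 0.141 in the E18.5d hearts, 0.320, 0.252 and 0.385 in the P1d hearts and 0.243, 0.323 and 0.327 in the P7d hearts. Both postnatal stages lay above E18.5d (exact permutation p = 0.1 each) and overlapped each other (exact permutation p = 0.7).

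**Figure D3:**
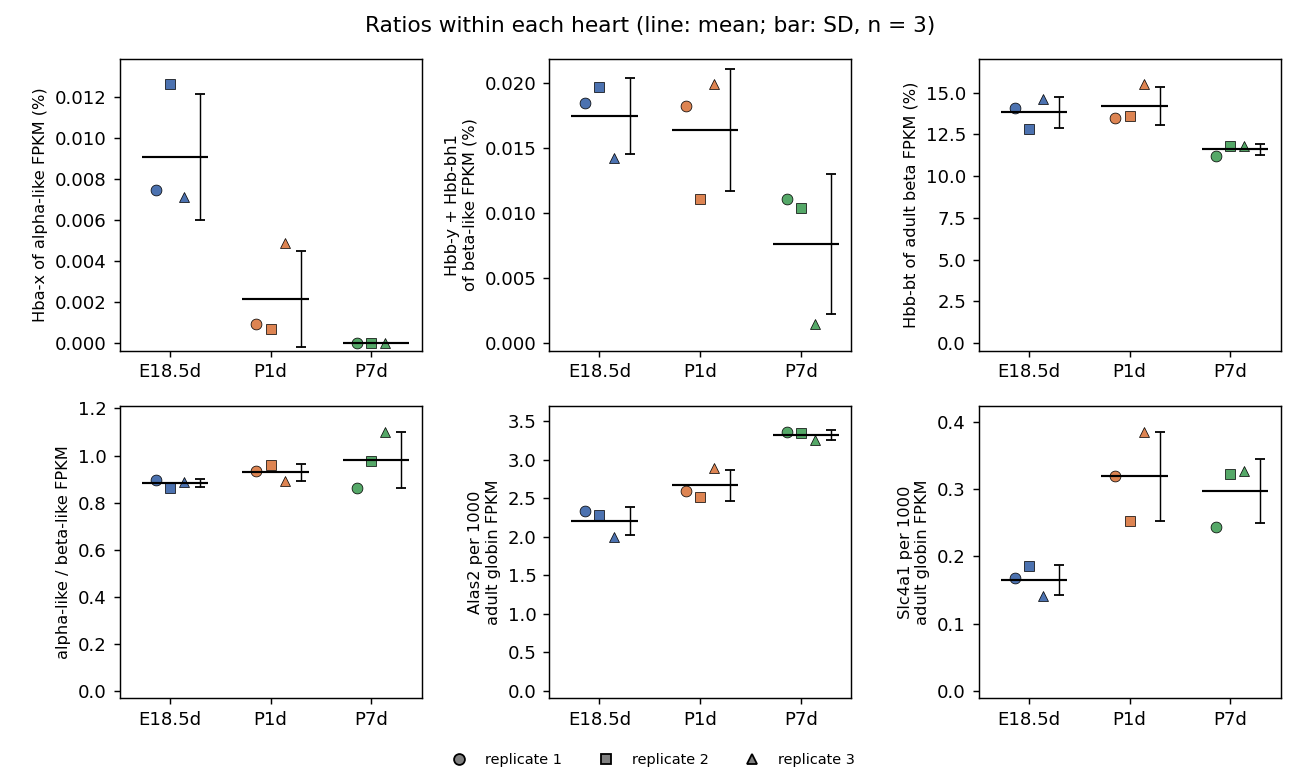
Ratios of FPKM within each heart by stage (points: hearts; line: mean; bar: SD, n = 3). The *Hba-x* share and *Alas2* per 1000 adult globin FPKM separate all 3 stages, in opposite directions, while the alpha-like to beta-like ratio overlaps throughout.

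Other genes were ranked by how closely they followed the adult globins across the hearts. Likeness was measured as the root mean square difference between profiles of log2(FPKM + 1) over the 9 hearts, scaled to mean 0 and SD 1, from the mean profile of the 4 adult globins. Among the nearest 10 outside the globins were *Kcnq1* (0.318), *Gm37352* (0.329), *Cln6* (0.362), *Gm28875* (0.365), *Gm15772* (0.438), *Itga2b* (0.471), *Slc25a37* (0.478) and *Alas2* (0.490). *Slc25a37*, the mitochondrial iron importer mitoferrin-1, was at 7.70, 6.59 and 11.0 FPKM, then at 8.87, 9.46 and 8.24 FPKM and at 6.20, 4.56 and 5.70 FPKM. It was highest in E18.5d replicate 3 and lower in every P7d heart than in any P1d heart. *Itga2b*, a platelet integrin, was at 1.78 FPKM in E18.5d replicate 3 and at 1.99 FPKM in P1d replicate 2, the highest heart of each stage. Of the other platelet markers, *Gp9* and *Treml1* were highest in the same hearts. *Pf4*, the most abundant, was higher in E18.5d replicate 2 (22.4 FPKM) than in replicate 3 (18.1 FPKM). Within P1d it was highest in replicate 2 (37.5 FPKM). Within E18.5d, *Ppbp*, *Gp1ba* and *Gp5* were highest in replicate 3. Within P1d these genes were highest in hearts other than replicate 2. Of the 50 genes nearest outside the 9 members, 5 were in the erythroid lists below. The 43 fitted genes of those lists made up 0.316% of the genes fitted. *Slc4a1* ranked 401.

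**Figure D4:**
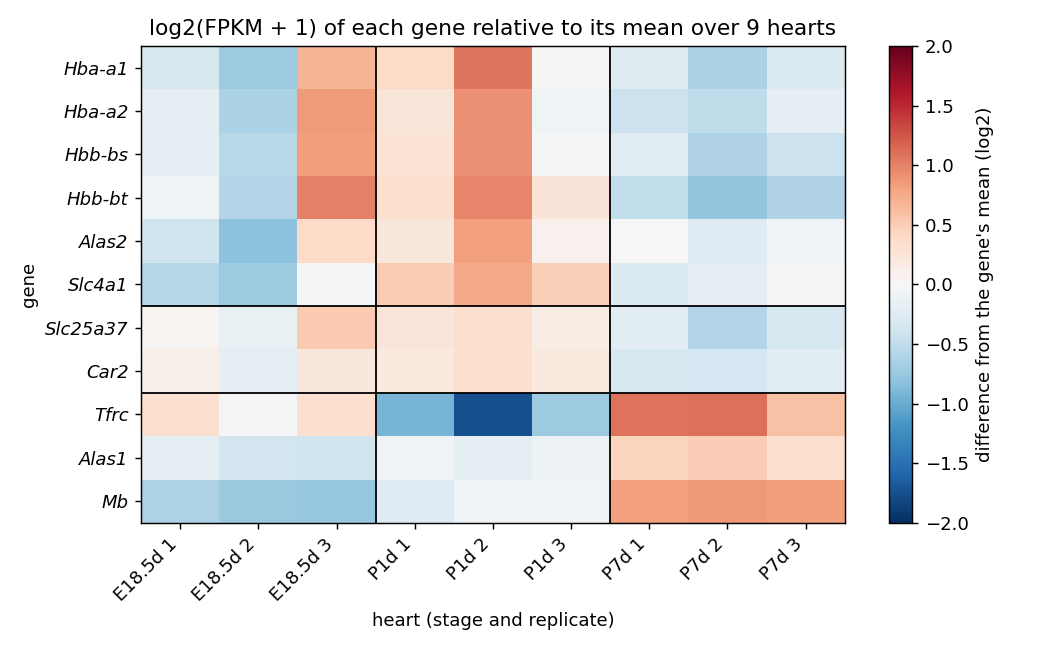
Heat map of log2(FPKM + 1) of each gene relative to its own mean, for 11 genes (rows) in 9 hearts (columns), with the 6 tested members on top, *Slc25a37* and *Car2* in the middle and *Tfrc*, *Alas1* and *Mb* below. The globin and *Alas2* rows are high in E18.5d replicate 3 and P1d replicate 2, and *Mb* is highest in the P7d hearts.

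Genes of heme synthesis, red cell membrane, erythroid transcription factors and erythroid maturation, 63 in all apart from the members, included genes called in both directions, and how many depended on the scale of the columns. At P1d against E18.5d, 12 of the 43 fitted were higher and 7 lower by limma (median log2 change 0.14, all genes -0.06), against 18.4% of all genes higher and 27.6% lower. The counts were 4 and 13 with columns of equal sum, where 1173 of all genes were higher and 4706 lower. With the median of ratios they were 16 and 6, where 3155 of all genes were higher and 3102 lower. At P7d against E18.5d, 12 were higher and 12 lower (median 0.06, all genes -0.17), against 12.5% and 36.9% of all genes. With the median of ratios 19 were higher and 6 lower, where 2907 of all genes were higher and 2838 lower. At P7d against P1d, 9 were higher and 12 lower (median -0.13, all genes -0.09), against 15.5% and 28.6% of all genes. Many of these genes are also used outside red cells.

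The heme pathway, of which all 12 genes were fitted, changed gene by gene. At P1d against E18.5d 3 were higher and 2 lower, against 18.4% and 27.6% of all genes, and at P7d against E18.5d 4 were higher and 3 lower, against 12.5% and 36.9%. *Alas1*, the form of the first enzyme used outside red cells, was at 92.8 to 108 FPKM at E18.5d, 108 to 116 FPKM at P1d and 154 to 172 FPKM at P7d, and rose by 0.74 on the log2 scale from E18.5d to P7d (limma adjusted p = 4.66e-05). *Urod*, which decarboxylates uroporphyrinogen, rose at P1d (0.70, limma adjusted p = 6.91e-04), as did *Fech*, which inserts iron to complete heme (0.42, limma adjusted p = 7.98e-04). *Cpox*, coproporphyrinogen oxidase, fell at P1d (-0.94, limma adjusted p = 4.66e-05). *Slc25a37* fell between P1d and P7d (-0.61, limma adjusted p = 0.0131). *Slc25a38*, which imports glycine for the first step, fell between E18.5d and P7d (-0.56, limma adjusted p = 0.0157).

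Among genes that handle released hemoglobin and heme, 3 of 7 fitted were higher at P1d than at E18.5d and 4 were lower at P7d than at P1d, against 18.4% and 28.6% of all genes. *Hmox1*, the inducible heme oxygenase, was at 6.64 to 9.11 FPKM at E18.5d, 14.9 to 16.9 FPKM at P1d and 9.56 to 11.1 FPKM at P7d, with log2 changes of 0.97 at P1d (limma adjusted p = 1.10e-04) and -0.57 from P1d to P7d (limma adjusted p = 0.00238). *Cd163*, the macrophage receptor for hemoglobin bound to haptoglobin, had log2 changes of 1.12 (limma adjusted p = 0.00677) and -0.98 (limma adjusted p = 0.0137) in the same comparisons. *Slc48a1*, a heme transporter, rose at P1d by 0.44 (limma adjusted p = 0.00228). *Hp*, haptoglobin, fell between P1d and P7d (-1.25, limma adjusted p = 0.00794). Leukocyte and macrophage markers (7 genes) summed to 47.6 to 64.5 FPKM at E18.5d, 74.9 to 100 FPKM at P1d and 74.3 to 79.5 FPKM at P7d, and their part in these changes was not tested.

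Of 12 fitted membrane and skeleton genes, 3 were higher and 2 lower at P1d than at E18.5d, against 18.4% and 27.6% of all genes. At P7d against E18.5d 5 were higher and 2 lower, against 12.5% and 36.9% of all genes. *Slc2a1*, the glucose transporter of red cells and many fetal tissues, was at 25.5 to 25.9 FPKM at E18.5d, 5.11 to 6.69 FPKM at P1d and 2.98 to 4.19 FPKM at P7d, a fall of 1.97 and then 0.59 on the log2 scale (limma adjusted p = 2.90e-06 and 0.00233). *Ank1*, ankyrin of red cells and muscle, rose from E18.5d to P7d by 1.37 (limma adjusted p = 6.33e-06). *Epb41*, protein 4.1, rose at P1d by 0.45 (limma adjusted p = 0.00314) and fell by P7d by 0.63 (limma adjusted p = 5.89e-04). *Rhd*, of the Rh complex, rose at P1d by 0.53 (limma adjusted p = 0.00571). *Rhag*, *Ermap*, *Kel*, *Icam4*, *Epb42* and *Add2* had means under 1 FPKM and were not fitted.

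Of 12 listed transcription factors 7 were fitted, and some of the others were at or near the limit of detection. *Gata1*, the main erythroid factor, was at 0 to 0.28 FPKM in the 9 hearts, *Klf1*, which activates adult beta globin, at 0 to 0.15 FPKM and *Myb*, of dividing progenitors, at 0.07 to 0.30 FPKM. *Gfi1b*, a repressor in red cell precursors, was at 4.15 FPKM in E18.5d replicate 1 and at 0.05 FPKM or less in the other hearts. *Tal1* and *Lmo2*, which bind DNA together with GATA factors and are also used in endothelium, were at 1.79 to 3.02 FPKM and at 8.49 to 11.9 FPKM. *Car1*, an abundant red cell carbonic anhydrase, was at 0 to 0.08 FPKM. *Epor*, the erythropoietin receptor, was at 0.21 to 0.43 FPKM at E18.5d, 0.84 to 1.27 FPKM at P1d and 0.39 to 0.73 FPKM at P7d and was not fitted. Of the factors fitted, *Bcl11a* and *Sox6*, which silence embryonic globins in red cells, fell from E18.5d to P7d by 0.92 and 0.54 on the log2 scale (limma adjusted p = 3.75e-05 and 0.00819). *Ldb1*, a cofactor of GATA1, rose at P1d by 0.46 (limma adjusted p = 1.49e-04) and fell by P7d by 0.66 (limma adjusted p = 3.00e-05). *Zfpm1*, another GATA cofactor, fell at P1d by 0.48 (limma adjusted p = 3.99e-04).

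Among the maturation genes, *Tfrc* had its lowest mean at P1d. The adult globins had their highest means there, but their rise from E18.5d did not pass the test. *Tfrc*, the transferrin receptor that brings iron into dividing and heme-making cells, was at 46.3 to 59.5 FPKM at E18.5d, at 24.0, 13.1 and 28.1 FPKM at P1d and at 100, 102 and 71.1 FPKM at P7d. It fell by 1.35 at P1d (limma adjusted p = 0.00195) and rose by 2.06 on the log2 scale from P1d to P7d (limma adjusted p = 2.28e-04). At P7d it was also higher than at E18.5d (0.71, limma adjusted p = 0.0381). Its lowest heart, P1d replicate 2, was the highest in adult globins at that stage. Within E18.5d, however, *Tfrc* and the adult globins were both highest in replicate 3 and lowest in replicate 2. *Car2*, another carbonic anhydrase, fell between P1d and P7d by 0.53 (limma adjusted p = 0.00390) and *Abcg2*, a porphyrin exporter, by 0.82 (limma adjusted p = 7.62e-05). In all, 6 of 12 fitted maturation genes were lower at P7d than at P1d and 1 was higher, against 28.6% and 15.5% of all genes. *Mgst3*, a glutathione transferase, rose at P1d by 0.57 (limma adjusted p = 0.00167).

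**Figure D5:**
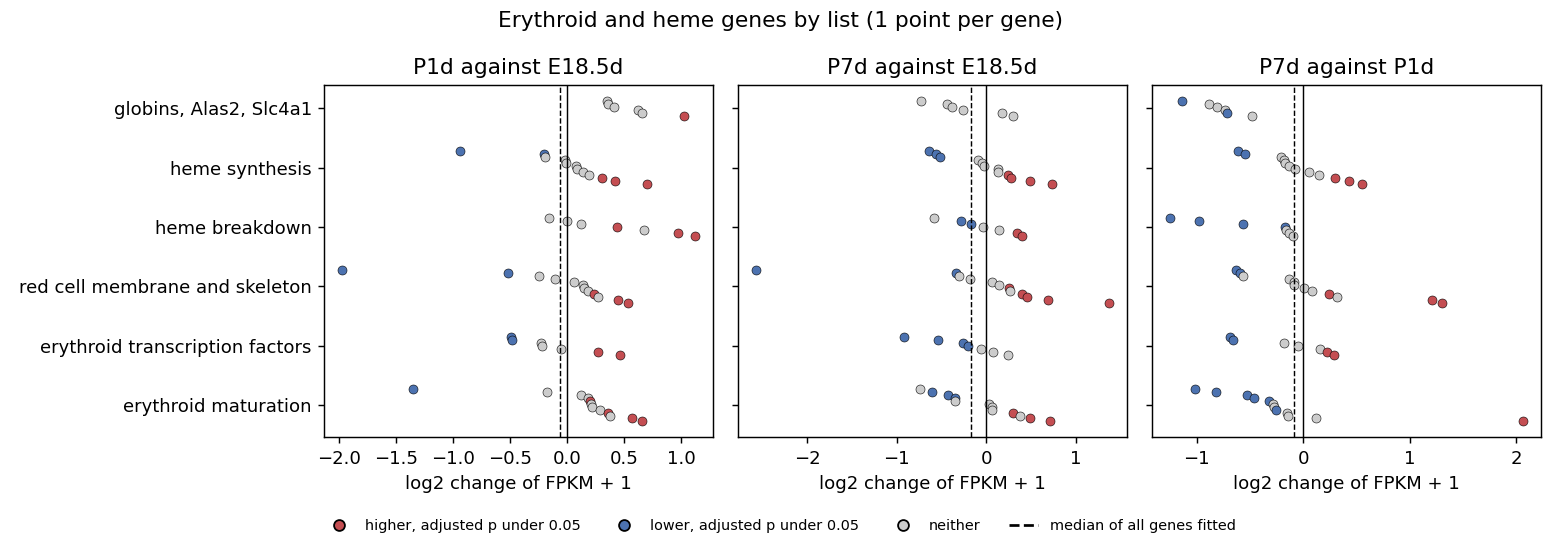
Log2 change of FPKM + 1 of each fitted gene, by list (rows) and comparison (panels), with genes called higher in red, called lower in blue and others in gray (adjusted p under 0.05 in limma; the dashed line is the median of all genes fitted). At P7d against P1d the 6 globin, *Alas2* and *Slc4a1* points all lie left of 0, while *Tfrc* lies farthest right at 2.06.

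*Mb* and *Cygb*, globins made outside red cells, showed another course. *Mb*, myoglobin, the oxygen store of heart muscle, was at 1768, 1627 and 1598 FPKM at E18.5d, at 2273, 2591 and 2565 FPKM at P1d and at 4818, 4953 and 4824 FPKM at P7d. It rose by 0.57 at P1d and by a further 0.98 on the log2 scale by P7d (limma adjusted p = 2.92e-04 and 2.34e-05), with no overlap between stages. *Cygb*, cytoglobin, was at 8.30 to 10.1, 15.3 to 18.4 and 30.7 to 33.0 FPKM and rose by 0.78 and 0.92 (limma adjusted p = 1.39e-04 and 7.68e-05). *Ngb*, neuroglobin, was at 0.14 FPKM or less, and *Hbq1a* and *Hbq1b*, theta-like globins of the alpha locus, were at 0.52 and 1.51 FPKM or less. *Hbb-bh0*, *Hbb-bh2* and *Hbb-bh3* of the beta locus were at 0 in every heart.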

How the data were processed

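RNA-seq of 9 C57BL/6J hearts, 3 per stage, was analysed. The authors deposited FPKM values of 48820 genes in 1 table, with a column for each heart. The submitters' processing notes name STAR and GRCm38/mm10, and the counting tool, annotation release, strandedness and treatment of shared reads are not given in the sources used here. Replicates are labeled biological. Members and gene lists were chosen with earlier results of these data known. Genes were matched by identifier to GENCODE M21 (48058 of 48820 found), and 8 of 9 members also matched by symbol, *Hbb-bs* being carried under the symbol Hbb-b1. 1 listed gene, *Ahsp*, had no match and was not analysed here. 0 columns lacked a sample.

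Limma 3.58.1 in R 4.3.3 was fitted on log2(FPKM + 1) of all 9 hearts (eBayes with trend, 13618 genes averaging 1 FPKM or more, Benjamini-Hochberg threshold 0.05), after tests on simulated data. Since FPKM are not counts, no count model was used. Depth was recovered from the steps of low FPKM values of single-transcript genes, of which 88.8% to 91.8% were whole fragments within 0.1 (20% by chance). Fragments of *Hba-x* were read with its 801-base transcript. Intervals from counts of fragments cover counting error only. Ratios were tested by exact permutation (scipy 1.17.1, numpy 2.4.6, pandas 2.3.3, Python 3.11.15), and figures drawn with matplotlib 3.10.9. Promoters were taken from RefSeq, in which 7 of 9 members had an entry.

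Named genes were the 9 members, all other globins, up to 3 genes per list and direction with the largest called change and no overlap between hearts, a preset set of erythroid genes and the 10 genes most like the adult globins. Some of these genes are not reported here. Alternatives covered the pseudocount (0.1), the filter (none, or 5 FPKM), 4 scalings, the variance model, the samples fitted, a replicate block, a minimum log2 change of 1, *Xist* (as a covariate, or only hearts at 1 FPKM or less) and each heart left out.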

Additional observations from a re-analysis of the deposited data

How the results depend on the processing

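Labels give the stages the same replicate numbers, but same-numbered hearts did not deviate together (correlations of -0.05 to 0.11), so the numbers do not pair the hearts. With the replicate block 1 member was called higher at P1d against E18.5d and 2 lower at P7d against P1d, as without it, and the list counts were 11 and 6, 12 and 12, and 9 and 12 (higher and lower, in the order P1d against E18.5d, P7d against E18.5d, P7d against P1d). The share of all genes called with the replicate block is not given here.

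Over all settings the log2 changes of the 6 fitted members at P7d against P1d were negative, from -1.42 to -0.26, and those at P1d against E18.5d positive apart from *Hbb-bs* under quantile normalization (-0.00). *Slc4a1* at P1d against E18.5d kept its call wherever it was fitted. At P7d against E18.5d signs changed with the hearts left out. Over the hearts left out *Hba-a1* ranged from -0.56 to 0.14 and *Hba-a2* from -0.70 to 0.04, both highest without E18.5d replicate 3, with or without P1d replicate 2. *Hba-a1* was 0.01 under quantile normalization. The hearts of *Xist* at most 1 FPKM are 1 E18.5d heart, 3 P1d hearts and 1 P7d heart, so every comparison of them has a stage of 1 heart, whose spread is taken to be that of the P1d hearts. Their counts and signs say nothing about stability and are given as values only. Between the single E18.5d and P7d hearts the changes were 0.49, 0.20, 0.33 and 0.10 for *Hba-a1*, *Hba-a2*, *Hbb-bs* and *Hbb-bt*. *Alas2* ranged from -0.09 to 0.51 over the hearts left out. The causes were not tested.

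Counts of members called lower at P7d against P1d were 1 with a log2 change of at least 1, 1 with a mean of at least 5 FPKM (where *Slc4a1* was not fitted), 1 under quantile normalization, 4 with only the 2 stages compared, 0 with only hearts of *Xist* at most 1 FPKM, 4 without both E18.5d replicate 3 and P1d replicate 2 (chosen after seeing the data), and 1 to 5 with a heart left out. Members called higher at P1d against E18.5d were 0 at 5 FPKM, 4 without those 2 hearts and 1 to 5 with a heart left out. At P7d against E18.5d 2 were higher without those 2 hearts and 0 to 1 in each direction with a heart left out. The share of all genes called is not given for the settings in this paragraph. With no filter 1 was lower at P1d and 2 at P7d against E18.5d, from the embryonic globins, and at P7d against P1d *Hbb-y* took the place of *Hbb-bt* (adjusted p = 0.0684 in limma), so that the count stayed at 2.

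Of the erythroid lists, with a log2 change of at least 1 the genes higher and lower were 0 and 2, 1 and 1, and 3 and 1 in the 3 comparisons in the same order. With only hearts of *Xist* at most 1 FPKM they were 1 and 2, 0 and 1, and 1 and 1. With columns of equal sum they were 4 and 13 at P1d against E18.5d, where 1173 of all genes were higher and 4706 lower. In that setting 6 were higher at P7d against E18.5d, where 1266 of all genes were higher. At P7d against E18.5d 6 were lower with an equal sum over protein-coding nuclear genes, where 2982 of all genes were lower. With the median of ratios 19 were higher and 6 lower, where 2907 of all genes were higher and 2838 lower. Under quantile normalization 7 were lower, where 2937 of all genes were lower. With a heart left out 7 to 12 were higher. For the minimum log2 change of 1, the hearts of *Xist* at most 1 FPKM and a heart left out, the share of all genes called is not given. Those list counts are therefore not set against a background. The share of all called genes that were higher was 20.0%, 22.1% and 56.0% with columns of equal sum, 44.2%, 47.4% and 56.5% over protein-coding nuclear genes and 51.1%, 49.6% and 50.8% under quantile normalization.

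Ratios that changed sign were ones whose hearts overlapped. With only hearts of *Xist* at most 1 FPKM, the alpha-like to beta-like difference was -1.99e-04 between the single P7d and E18.5d hearts and -0.0655 between that P7d heart and the P1d hearts, values with no test. With a heart left out, the difference of the embryonic beta share at P1d against E18.5d ranged from -0.00285 to 0.00157, of the *Hbb-bt* share from -0.277 to 0.764, of the alpha-like to beta-like ratio at P7d against P1d from -0.00930 to 0.107, and of *Slc4a1* per 1000 adult globin FPKM from -0.0551 to 0.0116. Depth limits *Hbb-bh1* (8 fragments) and *Hba-x* at P7d.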
